A study of Mus musculus with 3 samples.

Results

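The genes described here encode the enzymes that make, read and remove second messengers, together with the anchors and transcription factors that act with them. They were chosen by a rule on gene symbols that used no measured value, though earlier results of these data were known. The rule took every probe set annotated to a single symbol beginning with Adcy, Gucy, Pde (without Pde6), Prkac, Prkar, Prkg, Prkc (without Prkca), Camk, Plc (types b, d, e and g), Pik3, Dgk, Inpp, Ppp1 to Ppp3, Akap, Creb, Map2k or Mapk followed directly by a number, so that the Mapkapk genes are not among them. This gave 154 of 12422 probe sets, which stand for 114 of 8251 genes. The rule also takes in 4 genes that share only the symbol: Adcyap1, a signalling peptide, and its receptor Adcyap1r1, the centrosomal protein gene Pde4dip and Prkcsh, a subunit of a glucosidase of the endoplasmic reticulum.

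Total RNA of mouse neural retina at postnatal day 7 was hybridised to 3 Affymetrix MG-U74Av2 arrays. Each array held RNA pooled from the retinas of 3 to 4 animals, which were wild type, had Rp1-/- littermates and carried a mixed genetic background of 129/SvEv and C57BL/6. Collection fell between 1 and 2 pm. There was 1 group, so nothing was compared between conditions, and the measurements are the signal of each gene and its spread over pools 1, 2 and 3, numbers that are names without order.

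In these pathways a receptor at the cell surface switches on a cyclase, a phospholipase or a lipid kinase, and the small molecule it makes carries the signal inward. Cyclic AMP opens the protein kinase A complex, cyclic GMP acts on protein kinase G and on channels, diacylglycerol and calcium act on protein kinase C, and calcium bound to calmodulin acts on the Camk kinases and on calcineurin. Phosphodiesterases, lipid phosphatases and protein phosphatases end the signal. In the retina cyclic GMP carries the light response of photoreceptors, and cyclic AMP and calcium act in maturing neurons on axon growth, survival and gene activity.

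Values are intensities after each array was scaled to a common median, with a floor at 42.2. The background bar of each array was the 90th percentile of 64 genes of unrelated tissues, and a gene over it was called above background. The bar lay at 287, 262 and 302 in pools 1, 2 and 3. A value under the bar gives no measured level, and the gene may still be expressed. Signals of different probe sets cannot be set against each other, since each has its own binding strength, so levels of different probe sets are not ranked here, and where several of 1 gene are given it is for their side of the bar and their order of pools. In such bulk RNA, fewer cells of a type and less RNA per cell cannot be told apart.

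The arrays carried the markers of neural retina, and of the marker lists examined the lens list differed most between pools by summed level. Above background in all pools were 7 of 8 rod genes, 5 of 7 amacrine and horizontal cell genes, 6 of 6 ganglion cell genes and 4 of 5 Müller glia genes, but only 1 of 3 bipolar cell genes. Summed over 8 lens genes, intensity was 26729 in pool 1 against 126770 and 136209 in pools 2 and 3, and all 8 genes were lowest in pool 1. The rod gene Gnat1, of the transducin that links rhodopsin to its phosphodiesterase, was also low in pool 1 (219, 699 and 680), with a spread beyond that of probe sets of like brightness (limma adjusted p = 0.0162). The rod genes Sag, Crx, Pde6b, Pde6g and Cnga1 were lowest in pool 1 by smaller margins. Nrl (777, 617 and 487) and Rcvrn (1188, 1468 and 996) were lowest in pool 3. The summed level of 4 red blood cell genes was 3205, 6944 and 3047, with pool 2 the high one. Most of this sum was Hba-a1 (2914, 6705 and 2821), the only 1 of the 4 above background. Alas2 (113, 151 and 60.7) was also highest in pool 2, Slc4a1 (135, 46.3 and 123) was lowest there and Epb42 was at the floor. The ratio of 3' to 5' signal of the Actb control, a sign of RNA length, was 1.81, 1.27 and 1.30, highest in pool 1, and that of the Gapdh control was 0.874, 0.788 and 0.812, also highest there. The part of lens, rods, blood or RNA length in any value below was not tested unless a measurement is given.

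Of the 114 second messenger genes, 60 (52.6%) were above background in all 3 pools, beside 45.8% of all genes. A further 17 passed the bar in 1 or 2 pools and 37 in none, of which 7 lay at the floor in every pool. By share of members above the bar, the MAP kinase kinases came first (5 of 6), then protein kinase A (4 of 5), the MAP kinases and their scaffolds (7 of 10), the protein phosphatases (18 of 26) and the inositol phosphate phosphatases (5 of 8). The lowest shares were those of protein kinase G and the diacylglycerol kinases (0 of 1 each), the adenylyl cyclases with the Adcyap genes (2 of 9), the Camk kinases (1 of 4), and the A-kinase anchors (3 of 9) and guanylyl cyclases (1 of 3). Several families are too small for their share to be set against 45.8%. With the 75th percentile as the bar the count was 80 genes (70.2%), beside 59.1% of all genes, and without the 4 genes that share only the symbol it was 58 of 110.

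**Figure D1:**
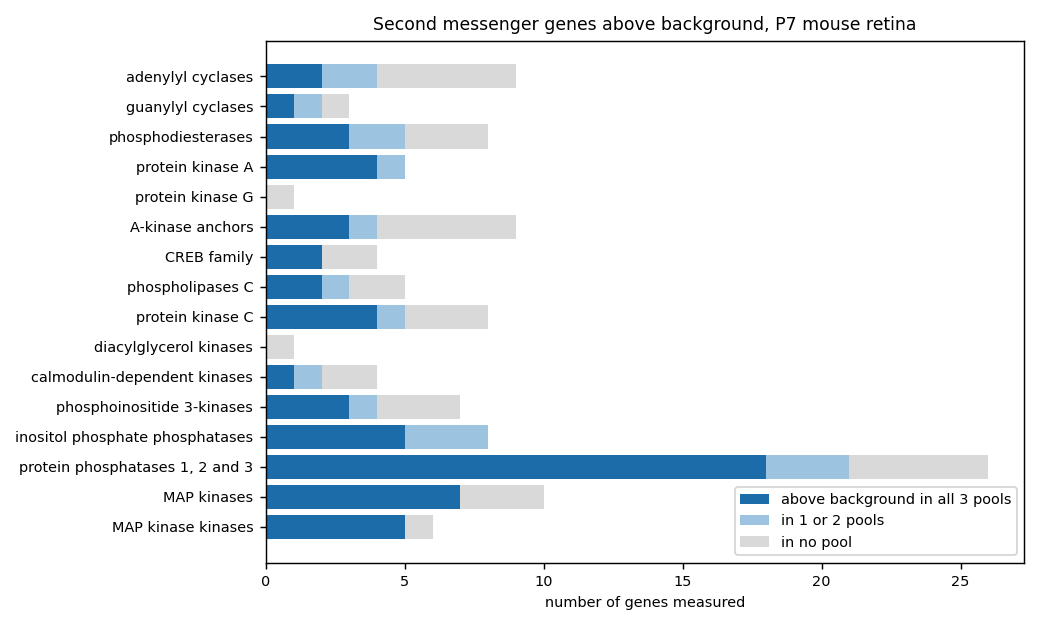
Number of measured genes in each family (horizontal axis, genes) above the background bar in all 3 pools (dark), in 1 or 2 pools (light blue) and in no pool (grey). The protein phosphatases had 18 of 26 genes above the bar in all pools and the adenylyl cyclase symbols 2 of 9.

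Among the makers of cyclic AMP, Adcy2 and Adcy6 had signal in every pool. Adcy2, a cyclase stimulated by G protein beta-gamma subunits, was at 1297, 1756 and 1345 in pools 1, 2 and 3 (1466 ± 252, mean ± SD, n = 3 pools, as for each such value below). Adcy6, a cyclase that calcium inhibits, was at 1380, 1439 and 1168 (1329 ± 143). The pools lay close together for both, and every value was well clear of the bar. Adcy9 passed the bar in pool 2 alone (234, 315 and 296), as did Adcy3 by a small margin (210, 269 and 230). Adcy8, the cyclase that calcium and calmodulin stimulate, was below it throughout (117, 79.1 and 61.7), and so were Adcy4 and Adcy7. The peptide gene Adcyap1, at 158, 227 and 100, and its receptor gene were below it as well.

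Among the makers of cyclic GMP, the subunit gene of the nitric oxide-activated cyclase had signal and the membrane cyclases had little. Gucy1b1, which encodes the beta subunit of the soluble enzyme, was at 496, 403 and 328 (409 ± 84.2), above the bar in each pool. Gucy2e, the membrane cyclase that restores cyclic GMP in photoreceptors after light, was at 182, 371 and 185, so that pool 2 alone passed the bar. Its range was among the 10 widest of the tested genes described here, and its spread was not beyond that of other probe sets (limma adjusted p = 0.959). Gucy2c, a cyclase of the gut, was below the bar in all pools by either of its 2 probe sets.

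Of the phosphodiesterases, which cleave the cyclic nucleotides, 2 enzymes had signal in every pool. Pde1b, an enzyme that calmodulin switches on, was at 1090, 1752 and 1207 (1350 ± 353). Pde7a, specific for cyclic AMP, was at 363, 425 and 450 (413 ± 44.5). Pool 2 was high for Pde1b, whereas Pde7a stayed within a narrow band. Pde4b, a cyclic AMP phosphodiesterase, passed the bar in pool 1 alone (354, 168 and 45.5), and Pde9a, which cleaves cyclic GMP, likewise (307, 124 and 223). Both were too dim on average to enter the test of spread. Pde1a was at the floor by either probe set, and Pde1c and Pde8a were below the bar.

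The protein kinase A complex, which cyclic AMP opens, had signal for its catalytic and its type I regulatory subunits. The catalytic subunit genes Prkaca and Prkacb were at 1071, 1746 and 1286 (1368 ± 345) and at 2299, 2620 and 2571 (2497 ± 173). Prkar1a, the type I alpha regulatory subunit gene, was at 5223, 6252 and 5086 (5520 ± 638). All 3 had their highest value in pool 2, as had 2134 of all 3783 genes above background in all pools. Prkar1b, the type I beta subunit gene enriched in neurons, was at 980, 1492 and 1176 by its chosen probe set and at 986, 673 and 1253 by another, so that pool 2 was the highest by the first and the lowest by the second. Prkar2a, a type II regulatory subunit gene, passed the bar in pool 2 alone (279, 490 and 184), a wide range without excess spread (limma adjusted p = 0.589). Prkg2, the 1 protein kinase G gene measured, was at the floor in all pools.

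Of the A-kinase anchors, which tether protein kinase A to parts of the cell, the mitochondrial and nuclear ones had signal. Akap1, an anchor of the outer mitochondrial membrane, was at 1118, 1091 and 1500 (1236 ± 229). Akap8, a nuclear anchor, was at 933, 902 and 784 (873 ± 78.6), and its relative Akap8l at 1081, 1070 and 868 (1006 ± 119). These 3 were above the bar in each pool. Akap9, of the centrosome and Golgi apparatus, reached it in pool 1 alone (316, 207 and 288), and Akap4, of the sperm tail, was at the floor. Akap2, Akap7, Akap12 and Akap17b were below the bar in all pools.

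In the CREB group, which carries cyclic AMP and calcium signals to the genome, 2 of 4 genes were above the bar. Crebbp, the acetyltransferase that binds phosphorylated CREB, was at 849, 1025 and 864 (913 ± 97.7). Creb3l1, a membrane-bound relative that responds to stress of the endoplasmic reticulum, was at 586, 568 and 587 (580 ± 10.8), the smallest spread of the 60 genes. Creb1 itself was below the bar by its chosen probe set (157, 226 and 272) and by a further one. The other probe set, at 148, 285 and 304, passed the bar in pools 2 and 3. Crebrf, which encodes a regulator of a CREB relative, was below the bar (211, 201 and 195).

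**Figure D2:**
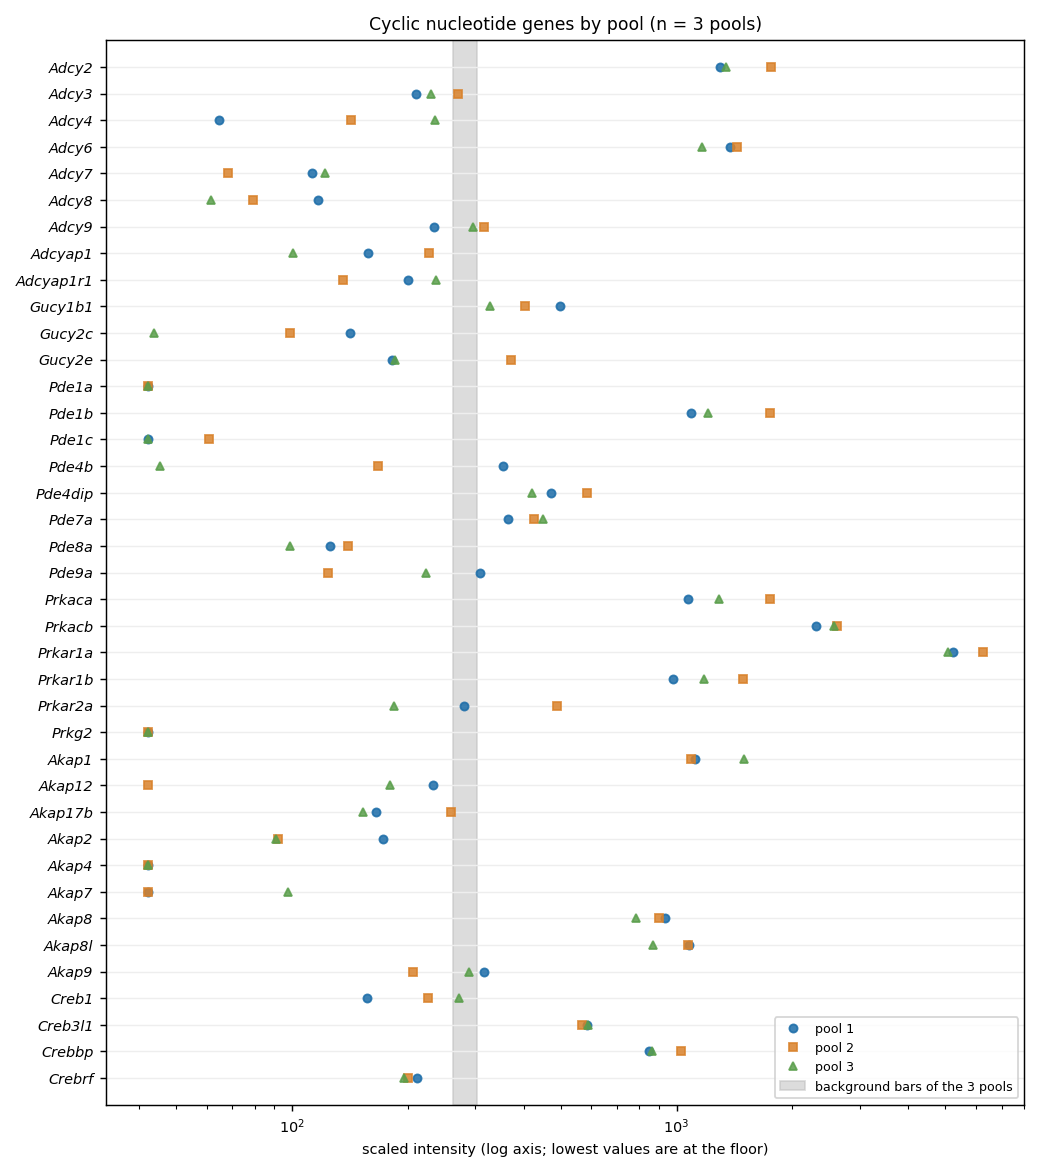
Scaled intensity (log axis, arbitrary units) of each cyclic nucleotide gene in pool 1 (circles), pool 2 (squares) and pool 3 (triangles), 1 chosen probe set a gene, with a grey band over the range of the background bars (262 to 302). The protein kinase A genes Prkaca, Prkacb, Prkar1a and Prkar1b lie right of the band in every pool, and Adcy8, Pde1a and Prkg2 left of it.

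The binding letters of CREB, the cyclic AMP response element TGACGTCA (the same on both strands), were looked for in RefSeq promoter windows of 250 bases before to 50 after the start site (GRCm38.p6). Windows were found for 90 of the 114 genes, 149 windows in all, and 9 of these (6.04%, from 7 genes) held the element, against 1.79% of all 32851 windows and 2.60% of the 8408 windows of genes on the array. By gene, the full element was in 7 of the 90 members and in 208 of the 6572 genes of the array with windows. The core TGACG, which the full element contains, was in 30.2% of members' windows, 20.8% of all and 28.5% of those on the array. The windows of the members and of the array also resembled each other in base content, with a median GC of 60.3% and 59.7%. The genes with the full element were Inpp4a, Mapk10, Ppp2ca, Prkar1a and Prkcz, above background in all pools, Ppp1r15a in 2 and Ppp1r12c in none. A match is a description of these letters and was not set against any binding data. The following 4 stretches, all upstream of a start site, are shown so that the element can be read in its context, with the element in capitals and the gene's strand 5' to 3'.

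Inpp4a (chr1:37299748-37299787, plus strand): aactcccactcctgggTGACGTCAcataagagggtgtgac
Mapk10 (chr5:103211340-103211379, minus strand): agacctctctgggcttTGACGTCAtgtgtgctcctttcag
Ppp2ca (chr11:52098782-52098821, plus strand): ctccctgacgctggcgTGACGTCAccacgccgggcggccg
Ppp1r12c (chr7:4501726-4501765, minus strand): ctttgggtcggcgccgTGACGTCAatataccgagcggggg

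In these stretches the element begins 74, 29, 26 and 69 bases before the start site of Inpp4a, Mapk10, Ppp2ca and Ppp1r12c. The first 3 genes had signal in every pool, and Ppp1r12c was at the floor by both of its probe sets, so genes with the element were found on either side of the bar. Among members above background in all pools, 7 of 87 windows held it (8.05%, 5 of 51 genes). Among the other members 2 of 62 did (3.23%, 2 of 39 genes), and the difference was not tested.

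In the phospholipase C family, whose members split a membrane lipid into diacylglycerol and inositol trisphosphate, Plcb1 and Plcd1 had signal in all pools. Plcb1, switched on by Gq proteins, was at 1262, 1617 and 1914 (1598 ± 326). Its 2 other probe sets were below the bar throughout. Plcd1, a calcium-sensitive form, was at 1098, 989 and 1127 (1071 ± 73.0). Plcg1, the form that tyrosine kinases activate, passed the bar in pools 2 and 3 (277, 268 and 330). Plcb3 was at the floor, and Plcg2, of immune cells, was below the bar.

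Each class of protein kinase C had a gene above the bar in all pools by its chosen probe set. Prkcb, a conventional form that needs calcium and diacylglycerol, was at 1509, 1825 and 1607 (1647 ± 162). The other probe set of Prkcb (270, 256 and 192) was below the bar throughout. Prkcd, a form that needs diacylglycerol but not calcium, was at 497, 490 and 585 (524 ± 53.1), and a further probe set of it was also above the bar in all pools. Prkcz, an atypical form that needs neither, was at 370, 531 and 530 (477 ± 92.6), lowest in pool 1. A further probe set of Prkcz (356, 515 and 717) was above the bar in all pools, and another (42.2, 88.9 and 42.2) in none. Prkce passed the bar in pool 1 alone (399, 258 and 275), and Prkch, Prkci and Prkcq were below it. Dgka, the 1 diacylglycerol kinase gene measured, was below it too (165, 141 and 82.0).

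Of the Camk kinases, Camk2b had signal and Camk2a did not rise above the floor. Camk2b, a neuronal subunit of calmodulin-dependent kinase II, was at 1813, 2094 and 1005 (1637 ± 566), with pool 3 the low one. Its fold between the highest and the lowest pool was 2.08, and the spread was not beyond that of other probe sets (limma adjusted p = 0.516). Camk2a, the subunit best known from the mature forebrain, was at the floor in all pools by both probe sets. Camk2d was above the bar in pools 2 and 3 (216, 313 and 319), and Camk4 was below it.

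Of the phosphoinositide 3-kinase genes, which encode lipid kinases of growth factor signalling, 3 of 7 were above the bar in all pools. Pik3r1, the regulatory subunit gene that places the kinase at receptors, was at 549, 1701 and 1406 in pools 1, 2 and 3. Pool 1 stood apart, and pools 2 and 3 were 2.82-fold above it. Pik3ca, the catalytic subunit gene, was at 825, 1240 and 1288 (1117 ± 255), also lowest in pool 1, while its second probe set (486, 430 and 632) was lowest in pool 2. Pik3r2 was at 470, 526 and 355 (450 ± 87.2). Pik3c3, whose product makes the lipid of endosomes and autophagy, was above the bar in pools 1 and 2 (418, 341 and 186), and Pik3cd, of white blood cells, was below it with Pik3c2a and Pik3c2g.

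The inositol phosphate phosphatases, which remove phosphates from inositol lipids and inositol phosphates, had 5 of 8 genes above the bar in all pools and the others in 1 or 2. Inpp4a was at 1957, 2456 and 2834 (2416 ± 440), from a probe set of a type designed under relaxed rules. Inpp5a, which ends the inositol trisphosphate signal, was at 574, 752 and 490 (605 ± 134), Inpp5k at 753, 1201 and 800 (918 ± 246) and Inppl1 at 462, 568 and 575 (535 ± 63.4). Inpp5b was at 540, 692 and 609 (614 ± 75.9) by its chosen probe set. Inpp5j passed the bar in pools 2 and 3 (207, 289 and 368). Inpp5d, the form of blood cells, was at 280, 133 and 376 by its chosen probe set, above the bar in pool 3 alone. The range of that probe set was among the 10 widest without excess spread (limma adjusted p = 0.583). The other probe set of Inpp5d was at the floor in all pools. For the 4 microglia and immune genes above background, median deviations on the log2 scale were -0.14, -0.08 and 0.23 in pools 1, 2 and 3. The genes themselves differed in their order of pools, and only Cx3cr1 was highest in pool 3 (402, 357 and 578). C1qa (327, 400 and 370) and C1qc (387, 667 and 654) were highest in pool 2, and Cd14 (581, 351 and 562) in pool 1. The part of such cells in the Inpp5d values was not tested.

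**Figure D3:**
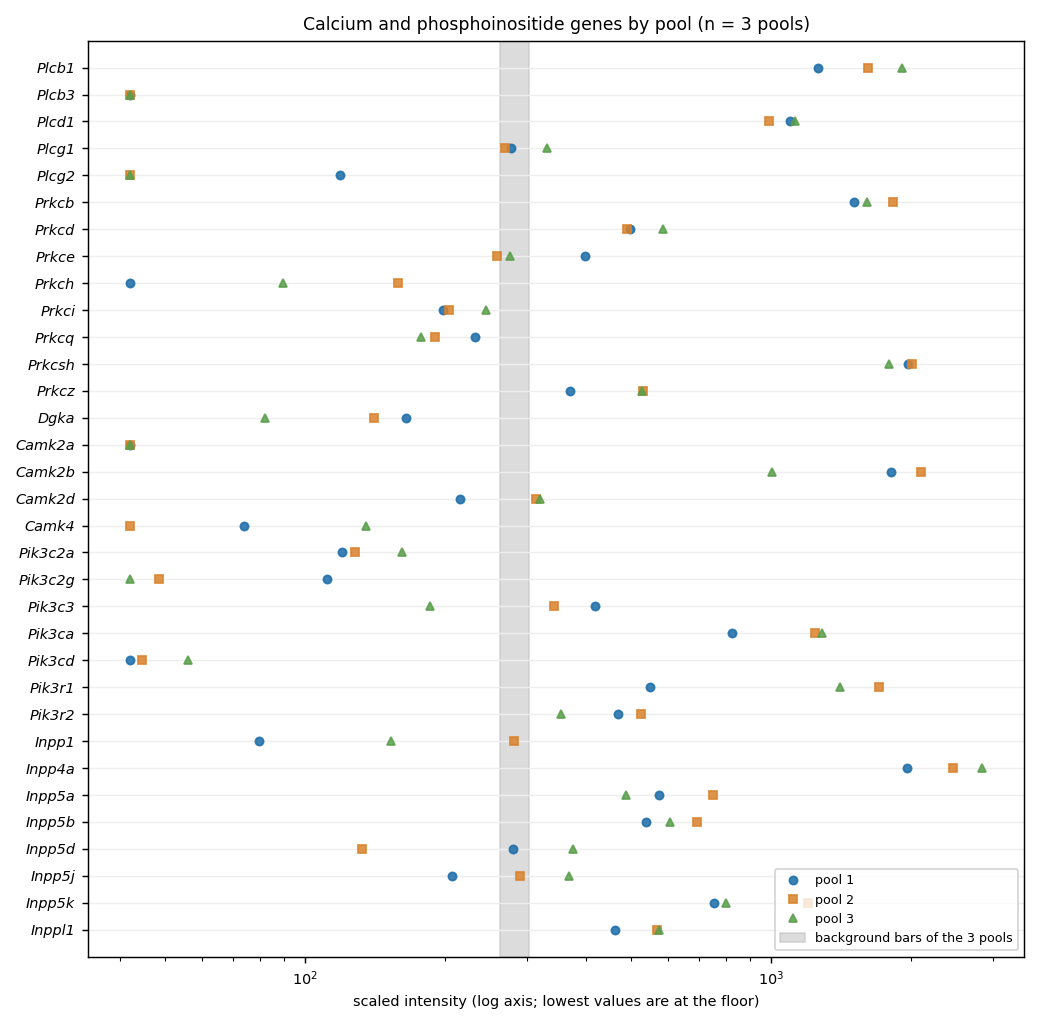
Scaled intensity (log axis, arbitrary units) of each calcium and phosphoinositide gene in the 3 pools, with the range of the background bars as a grey band. Pik3r1 shows pool 1 (549) apart from pools 2 and 3 (1701 and 1406), and Camk2a lies at the floor of 42.2.

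Protein phosphatases had signal for catalytic and regulatory subunits of all 3 types. For type 1, the catalytic subunit genes Ppp1cb and Ppp1cc were at 2632, 1577 and 2314 (2174 ± 541) and at 3217, 2989 and 2778 (2995 ± 220). For type 2A, the catalytic genes Ppp2ca and Ppp2cb were at 614, 448 and 355 (473 ± 131) and at 1314, 1459 and 1207 (1327 ± 127). These catalytic genes come in close paralogs whose probes may share signal. The scaffold gene Ppp2r1a was at 4365, 6561 and 5334 (5420 ± 1100), and the brain regulatory subunit gene Ppp2r2b at 3204, 5146 and 3963 (4104 ± 979). Both, and the regulatory gene Ppp2r5c (1913, 2934 and 2221), were lowest in pool 1 and highest in pool 2, whereas Ppp2ca was highest in pool 1 and lowest in pool 3. Ppp2r5d was at 561, 1058 and 452, a 2.34-fold range with pool 2 high (limma adjusted p = 0.372).

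Calcineurin, the phosphatase that calcium and calmodulin switch on, had all 4 measured genes above the bar in every pool. The catalytic subunit genes Ppp3ca, Ppp3cb and Ppp3cc were at 1680, 1787 and 2329 (1932 ± 348), at 1011, 726 and 802 (847 ± 148) and at 622, 444 and 406 (491 ± 116). The regulatory subunit gene Ppp3r1 was at 1998, 2712 and 1965 (2225 ± 422). The 4 genes shared no order of the pools: the highest value was in pool 3 for Ppp3ca, in pool 1 for Ppp3cb and Ppp3cc and in pool 2 for Ppp3r1. Among the inhibitors of type 1 phosphatase, Ppp1r1a, which protein kinase A turns on, was below the bar (215, 179 and 214), and Ppp1r2 passed it in pool 2 alone (246, 391 and 179). Ppp1r17, an inhibitor gene known from cerebellar Purkinje cells, passed it in pool 1 alone (374, 180 and 287), and its further probe set in pool 2 alone (277, 298 and 196).

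The other regulatory subunits of types 1 and 2A were mixed. Ppp1r7, Ppp1r14b, Ppp1r15b, Ppp1r18, Ppp1r21 and Ppp2r5a were above the bar in all pools. Ppp1r15a, which aims type 1 phosphatase at the translation factor eIF2 alpha during stress, was at 408, 347 and 271, under the bar in pool 3. Ppp1r3c, Ppp1r12c, Ppp2r1b and Ppp2r2a were below the bar in all pools, so that of the paired subunit genes Ppp2r1a and Ppp2r1b, and Ppp2r2a and Ppp2r2b, 1 of each pair was read above background.

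The MAP kinase cascades, which pass signals from the membrane to the nucleus, had signal in their JNK, p38 and atypical branches. The JNK genes Mapk8, Mapk9 and Mapk10 were at 1362, 1910 and 1922 (1732 ± 320), at 424, 975 and 537 (645 ± 291) and at 543, 533 and 345 (474 ± 112). Mapk9 had a 2.30-fold range with pool 2 high (limma adjusted p = 0.463). Further probe sets of Mapk8 and Mapk10 were below the bar in all pools. The JNK scaffold genes Mapk8ip1 and Mapk8ip3 were at 2014, 1889 and 1933 (1945 ± 63.4) and at 1175, 1833 and 924 (1311 ± 470). The other probe set of Mapk8ip1 (120, 233 and 310) passed the bar in pool 3 alone. Mapk14, the p38 alpha gene, was at 1182, 1281 and 964 (1142 ± 162), from a probe set that other transcripts may share, while the p38 relatives Mapk12 and Mapk13 were below the bar. Mapk6, an atypical MAP kinase gene, was at 3133, 3295 and 2921 (3116 ± 188).

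Upstream, 5 of 6 MAP kinase kinase genes were above the bar in every pool, and Map2k6 was below it. Map2k1 and Map2k2, which activate the ERK kinases, were at 721, 412 and 469 (534 ± 164) and at 348, 443 and 500 (430 ± 77.0), with pool 1 the highest for the first and the lowest for the second. Map2k4, of the JNK branch, was at 506, 660 and 469 (545 ± 101), and Map2k3, of the p38 branch, at 370, 471 and 347 (396 ± 65.6). Map2k1 and Map2k3 each had a further probe set at the floor, and another probe set of Map2k3 was above the bar in all pools. Map2k5 was at 849, 814 and 775 (812 ± 36.9), one of the narrow ranges, whereas its substrate gene Mapk7 was below the bar (165, 254 and 42.2, the last at the floor).

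Across the 60 genes above background, the pool medians under the main scaling had the same signs as those of all genes. Set against each gene's own mean over the pools, the median on the log2 scale was -0.07 in pool 1, 0.16 in pool 2 and -0.09 in pool 3, beside -0.04, 0.13 and -0.09 over all 3783 genes above background. The lowest value was in pool 3 for 27 of the 60 (45.0%, beside 46.0% of all genes above background), in pool 1 for 23 and in pool 2 for 10. The highest value was in pool 2 for 33 of the 60, beside 2134 of the 3783, so a high pool 2 was common on these arrays. The scaling itself shifted pool 2 by 0.12 on the log2 scale, and without it the medians were -0.02, 0.04 and -0.03, beside 0.02, 0.01 and -0.02 over all genes, so that the sign of pool 1 then differed. The median SD was 0.25 on the log2 scale, beside 0.23 over all genes above background. By chosen probe sets, 12 of the 60 genes were within 1.2-fold over the pools, beside 769 of the 3783. Among the 12 were Creb3l1, Mapk8ip1, Map2k5, Prkcsh, Mapk6 and Prkacb. A range over 2-fold was seen in 4 (6.67%, beside 3.57%): Pik3r1, Camk2b, Ppp2r5d and Mapk9.

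**Figure D4:**
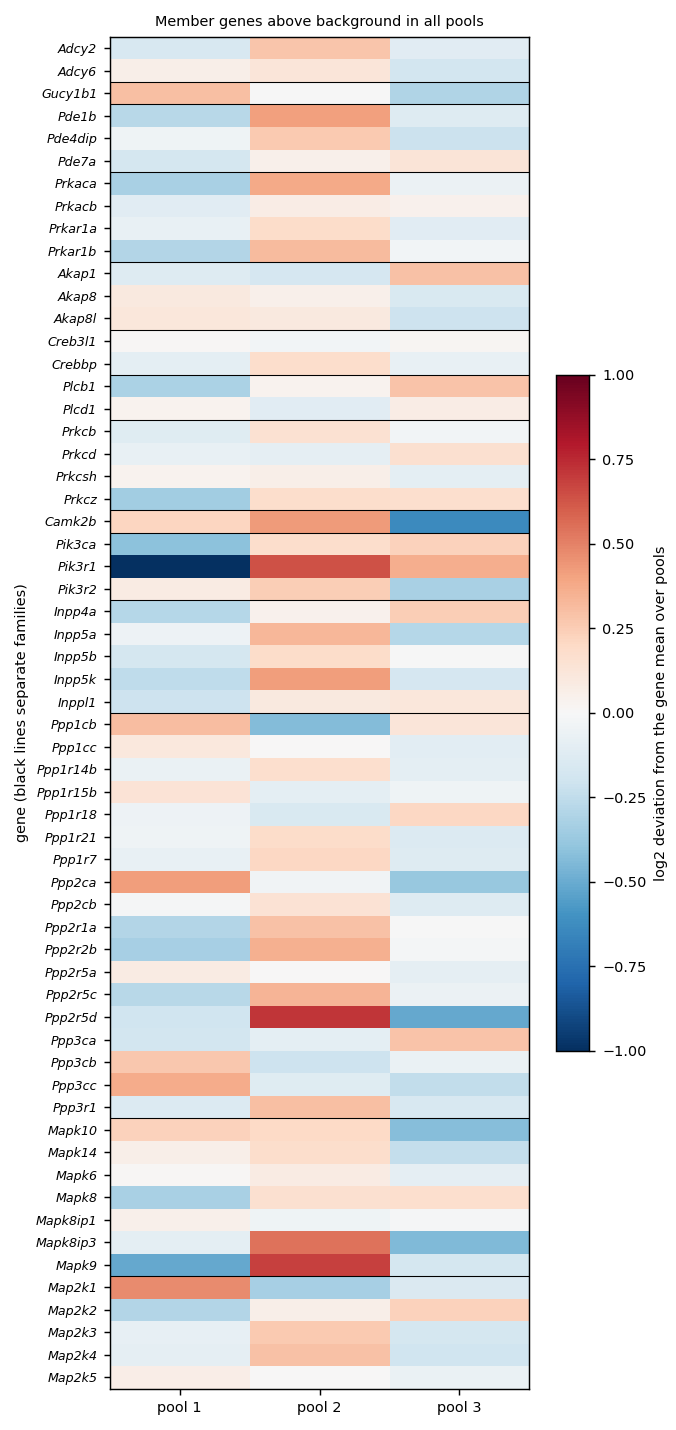
Log2 deviation of each of the 60 genes from its own mean over the pools, as colour from -1 (blue) to 1 (red), with genes as rows grouped by family and pools as columns. Pik3r1 in pool 1 is the deepest blue cell, and most cells are pale.

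Excess spread between pools, meaning a variance beyond that of probe sets of like brightness, was called for 2 of the 91 probe sets that were bright enough to be tested (2.20%, beside 1.34% of all 6211 tested). At an unadjusted p below 0.05 there were 9 (9.89%, beside 6.76%). The first call was Pik3r1 (limma adjusted p = 0.0103), low in pool 1. The lens genes were lowest in the same pool, for example Cryaa at 7413, 38200 and 39990. Of the rod genes, Gnat1 was low there too, and Sag, Crx, Pde6b, Pde6g and Cnga1 were lowest there by smaller margins. Nrl (777, 617 and 487) and Rcvrn (1188, 1468 and 996) were instead lowest in pool 3. Both 3' to 5' ratios were highest in pool 1. The part of lens, rods or RNA length in the Pik3r1 values was not tested. The second was a further probe set of Inpp5b, of a type that may be shared between transcripts, at 482, 721 and 140 (limma adjusted p = 6.39e-04). In pool 3 it lay below the bar of 302, while the chosen probe set of Inpp5b (609 there) passed its bar in every pool. The calls were lost without scaling, where limma's adjusted p was 0.372 for each, after quantile normalisation (0.258 for Pik3r1 and 0.245 for Inpp5b) and with dim probe sets kept (0.266 for each). The highest pool of Pik3r1 was 3.10-fold above its lowest with scaling and 2.74-fold without it. Limma's adjusted p of Pik3r1 was also 0.112 without the robust option and 0.0716 with 1 prior variance for all levels. It was 0.983 without pool 1 and 0.587 without pool 2, and that of Inpp5b was 0.836 without pool 2 and 0.996 without pool 3.

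Probe sets of the same gene were not always in accord. Of the 114 genes, 32 had several probe sets, 72 in all. All probe sets were above the bar in every pool for 5 of these genes, some for 12 and none for 15. Log2 deviations of probe sets of 1 gene differed by over 1 in some pool for 5 genes: Gucy2c, Plcb1, Inpp1, Inpp5b and Ppp1r2, each with at least 1 probe set below the bar in some pool. Among the 8 genes with at least 2 probe sets above it everywhere, the largest such difference had a median of 0.51 and was 0.80 for Prkar1b and 0.79 for Akap1. Inpp1 was above the bar in pool 2 alone by its chosen probe set (79.9, 280 and 153) and in every pool by another (1138, 920 and 1198). The values of a gene with several probe sets therefore depend on which of them is read.

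**Figure D5:**
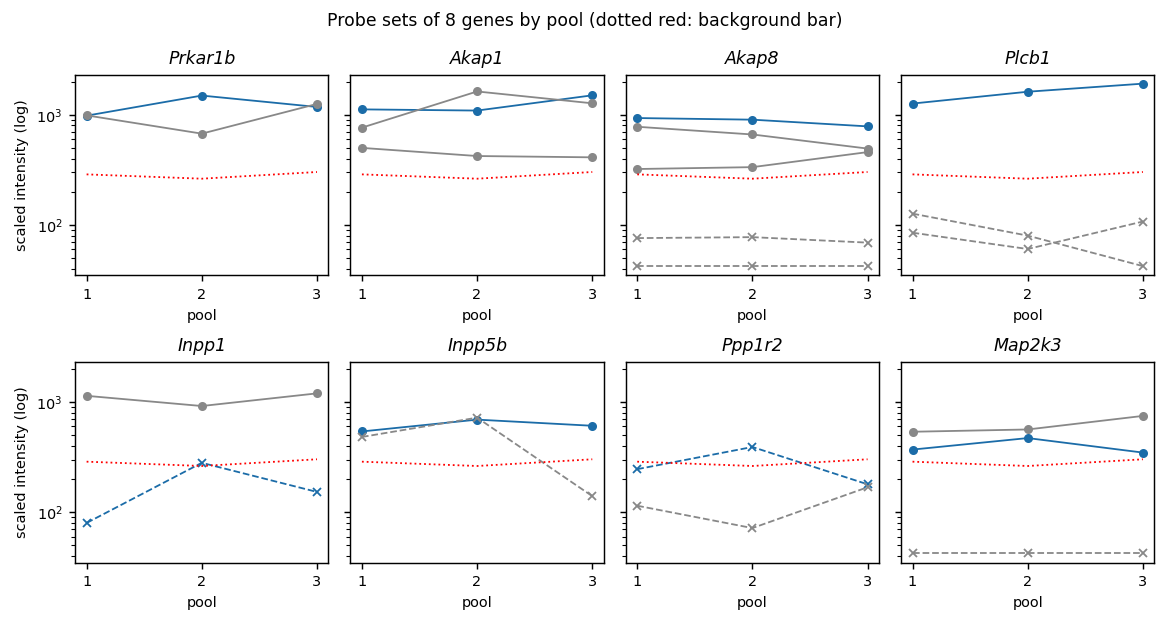
Scaled intensity (log axis) by pool for each probe set of 8 genes, the chosen one in blue and the others in grey, with the background bar as a red dotted line. Solid lines with circles are above the bar in all 3 pools and dashed lines with crosses are not; lines join the values of 1 probe set and imply no order. The probe sets of Prkar1b cross, and in pool 3 the chosen probe set of Inpp5b is above the bar and the other below it.

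Partners of these enzymes were taken from a list of 100 genes: upstream and downstream proteins, channels, inhibitors and CREB target genes. Of the 68 measured, 28 (41.2%) were above background in all pools, beside 45.8% of all genes. Pkia, an inhibitor of protein kinase A, was at 1753, 1692 and 1087 (1511 ± 368), and Marcks, a substrate of protein kinase C, at 5399, 5917 and 5259 (5525 ± 347). Guca1a, which lets calcium control the photoreceptor cyclase, was at 1061, 1552 and 990 (1201 ± 306), and was above the bar where Gucy2e passed it in 1 pool. Among CREB target genes Egr1 was at 494, 330 and 317 (380 ± 98.5) and Dusp1 at 651, 830 and 697 (726 ± 92.9), while Fos, Bdnf and Nr4a2 were below the bar in all pools. None of the 44 tested partner probe sets had excess spread by limma's test, and 1 had an unadjusted p below 0.05.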

How the data were processed

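The deposited table held 1 intensity per probe set and array on a linear scale (12488 rows, 66 of them controls). What software and background correction made the values deposited by the authors is not given in the sources used here, and detection calls were not analysed. The array type was read from the sample titles. Probe sets were named through the platform annotation supplied with the series: 10833 had 1 gene, 396 several and 1193 none, and 10817 symbols were updated by gene ID through RefSeq names (GRCm38.p6). Of the members' symbols, Akap2 alone had no update and was kept.

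Arrays were brought to a common median of their non-control probe sets (factors 0.962, 1.09 and 0.959 for pools 1, 2 and 3), floored at the 20th percentile (42.2) and put on the log2 scale. A gene was read by 1 probe set, one without a letter suffix first, then the one with the highest mean. Background was the 90th percentile of 64 off-tissue genes, of which 3 (Lhb, Krt10 and Cyp21a1) passed it in all pools.

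Excess spread was tested on the 50% of probe sets with the highest mean. The variance of each over the pools, on 2 degrees of freedom, was compared with limma's squeezeVar prior (robust, level as covariate), with Benjamini-Hochberg adjustment over all 6211 at 0.05. The comparison was an upper-tail F test written for this report, and it used the highest prior degrees of freedom (279) for every probe set. The terms limma's test and limma adjusted p stand for this F test on limma's prior. In simulations over those 6211 probe sets, the test recovered 7.76% of changes in 1 array that were 2-fold, 78.1% at 4-fold and 95.6% at 8-fold, so most changes near 2-fold would be missed. No label ties the samples to separate litters or preparations beyond the pooling, so the p-values reflect only how far these samples differ, which may be technical. The number of arrays limits the precision.

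Members, lists and tests were chosen with earlier results of these data known. Named were genes of a list by family, members with excess spread, the 10 with the largest SD among those tested, and genes whose probe sets differed by over 1 on the log2 scale. Other scalings, filters, bars and left-out pools were tried. R 4.3.3, limma 3.58.1 and Python 3.11.15 were used.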

Additional observations from a re-analysis of the deposited data

How the results depend on the processing

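The number of genes above background in all pools (60, beside 3783 of all genes) was 60 without scaling (3783) and after quantile normalisation (3784), 54 with the mean of all probe sets (3438), 80 with the 75th percentile as the bar (4876), 58 without the 4 genes that share only the symbol (chosen after seeing the data) and 63, 60 and 62 without pools 1, 2 and 3 (3936, 3849 and 4039). The partner count of 28 was 40 with the 75th percentile (59.1% of all genes). The median deviations by pool moved by less than the median SD of the genes (0.25) under each alternative run. That SD was larger than each of these medians, so they cannot be called stable by it. After quantile normalisation the median of pool 2 fell from 0.16 to 0.005. Without pool 2, that of pool 1 went from -0.07 to 0.02. Excess spread by limma's test, called for 2 probe sets (83 of all), was called for 0 without scaling, for 0 after quantile normalisation and for 0 with dim probe sets kept (6, 6 and 0 of all, and 7, 6 and 3 of the members at an unadjusted p below 0.05), 1 in the brightest 25% (Pik3r1, 27 of all), 1 without the robust option (Inpp5b, 38 of all) and 1 with a single prior variance (Inpp5b, 84 of all), 2 with a pseudocount of 50 in place of the floor (82 of all), and between 0 and 1 with any 1 pool left out, the 0 being without pool 2 (4 at an unadjusted p below 0.05); over all probe sets there were then 30, 9 and 23 calls without pools 1, 2 and 3. The cause was not tested. No partner probe set was called without scaling or after quantile normalisation. No paired analysis was possible because there was 1 group. Signal over background limits 54 of the 114 genes, which had no measured level in at least 1 pool.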
